A study of Mus musculus with 9 samples.

Results

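The 9 genes described here encode neurotrophins, the glial cell line-derived neurotrophic factor GDNF, and their receptors. They are the ligands Bdnf, Ntf3 and Gdnf, the neurotrophin receptors Ntrk2, Ntrk3 and Ngfr, and the GDNF family receptors Gfra1, Gfra2 and Ret. They were taken by symbol from the 52636 Ensembl genes of the raw count table, and all 9 were among the 39210 genes with enough counts to be tested. The RNA came from nucleus accumbens cells of C57BL/6 males, labelled cholinergic interneurons, which had been sorted by a fluorescent antibody to choline acetyltransferase (ChAT), their acetylcholine-making enzyme. There were 3 groups of 3 libraries. Drug-naive mice, titled WT, took no cocaine, and their age, like that of the other mice, is not given in the sources used here. The mice titled RES and SUS had first earned at most 40 infusions of cocaine at a fixed ratio, and then worked for cocaine at 1.2 mg/kg per infusion on 10 consecutive days of 23 h progressive ratio sessions. Collection of the accumbens followed on day 3 after these sessions. Each condition pooled the tissue of 2 to 3 mice. Whether the libraries of a group are separate pools is not stated, so the p-values cover the library-to-library spread alone, which may be technical. The phenotype field of the labels calls RES mice susceptible and SUS mice resilient to addiction, against their titles, so the groups go by their titles here, and neither is treated as the resilient or the susceptible one. No transgene, deletion or other allele is given for any group.

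Neurotrophins are secreted growth factors. BDNF acts through the receptor tyrosine kinase TrkB (Ntrk2) and NT-3 mainly through TrkC (Ntrk3), while p75 (Ngfr) binds all neurotrophins and their uncleaved precursors. GDNF binds the membrane-anchored co-receptor GFRα1 (Gfra1), its relative neurturin prefers GFRα2 (Gfra2), and both complexes signal through the tyrosine kinase RET (Ret). In the striatum most BDNF protein is delivered by axons from cortex rather than made locally, GDNF comes from a small set of local interneurons, and Ret is best known from the axons of midbrain dopamine neurons. Ntrk2 also has a form without the kinase domain that is abundant in astrocytes. Bdnf in the cortex and accumbens is widely studied in cocaine seeking.

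Total counts ran from 4471675 to 11155730 per library. Levels are given as a gene's counts per kb of its exons, divided by the same density over 1092 olfactory receptor genes, which brain cells hardly express. That density is called background here and was 6.09 to 21.2 counts per kb. The median of 30 genes restricted to other tissues was 1.33 to 1.85 times background, with single genes averaging up to 3.54, and levels up to about the range of the median are called here those of silent genes. Of 21883 protein-coding nuclear genes, 26.3% averaged at least 3 times background. The defining markers of cholinergic interneurons did not reach that level on average: 0 of 7 did, and none of them was at 0 counts in any library. Chat was at 0.877 to 2.5 times background except in SUS replicate 2, where it was at 7.87, and Slc5a7, the choline transporter, was at 0.801 to 1.46. Of the other lists, 11 of 12 medium spiny neuron genes, 7 of 8 astrocyte genes, 6 of 6 oligodendrocyte genes and 9 of 9 microglial genes averaged 3 times background or more, against 0 of 5 cortical glutamatergic and 0 of 4 midbrain dopamine neuron genes. These counts depend on the length used, here that of all exons. With the longest transcript as length, Chat averaged 3.74, Isl1 3.08 and the dopamine neuron gene Ddc 5.90. The other cholinergic, cortical glutamatergic and dopamine neuron genes stayed under 3, while the tissue-restricted gene Muc2 reached 7.99. The microglial median varied most, from 1.77 times background in RES replicate 2 to 87.6 in SUS replicate 3. In pooled sorted cells, fewer cells of a type and less RNA per cell cannot be told apart.

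The promoters of the receptor with the highest level and of the ligand with the lowest are shown for reference, as the 250 bases before a transcript start (RefSeq, GRCm38.p6). Of the 9 genes, 6 matched the RefSeq promoter table, with 14 starts in all, 7 of them in Bdnf. The Ntrk2 window lies at chr13:58806319-58806568 on the plus strand, directly before the first annotated exon of the gene. The Bdnf window lies at chr2:109692186-109692435, also on the plus strand, before the first exon of a transcript that starts inside the gene. It was picked from the 7 Bdnf windows because it alone held TCACGTCA: of the other 6, 2 held the GC box and 4 none of the motifs searched. Capitals mark the letters TCACGTCA, a form of the cyclic AMP response element, in the Bdnf window, while the Ntrk2 window held none of the motifs searched and has no capitals.
Ntrk2: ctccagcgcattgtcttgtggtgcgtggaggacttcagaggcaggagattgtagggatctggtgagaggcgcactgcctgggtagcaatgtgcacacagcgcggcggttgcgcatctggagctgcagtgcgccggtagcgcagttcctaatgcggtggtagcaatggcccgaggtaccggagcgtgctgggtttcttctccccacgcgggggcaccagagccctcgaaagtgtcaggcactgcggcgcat
Bdnf: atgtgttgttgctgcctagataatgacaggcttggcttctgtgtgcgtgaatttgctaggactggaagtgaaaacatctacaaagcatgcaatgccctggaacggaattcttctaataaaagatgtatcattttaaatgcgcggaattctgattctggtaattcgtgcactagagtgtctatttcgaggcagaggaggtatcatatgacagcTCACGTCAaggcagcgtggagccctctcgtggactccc

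The motif in the Bdnf window begins 38 bases before the transcript start. Both strands were searched for TCACGTCA, for the full element TGACGTCA, for the GC box GGGCGG, for the E-box CACGTG and for TATAAA, and none of these runs of letters lies within another. The first of these was found in 0.350% of all 32851 promoter windows of this length, TGACGTCA in 1.55%, GGGCGG in 32.7%, CACGTG in 6.02% and TATAAA in 12.4%. The Ntrk2 window had a GC content of 62.8% and the Bdnf window 45.6%, with a median of 52.4% over all windows. The count table has 1 value per gene, so it does not separate the 7 starts of Bdnf.

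Among the 9 genes, Ntrk2 was the most expressed per exonic length, and the 3 ligands averaged at the level of silent genes. Averaged over the 9 libraries, the count density was 5.98 ± 2.40 times background for Ntrk2 (SD, n = 9), 3.31 ± 1.01 for Gfra1, 3.04 ± 1.07 for Ntrk3 and 2.43 ± 0.390 for Gfra2. It was 1.76 ± 0.218 for Ret, 1.45 ± 0.373 for Gdnf, 1.30 ± 0.365 for Ngfr, 1.26 ± 0.336 for Ntf3 and 0.725 ± 0.0853 for Bdnf. Ntrk2 exceeded Gfra1, the next in order, in 9 of 9 libraries, and Ntf3 exceeded Bdnf in 9 of 9. The neighbours between them were closer than their spread over libraries: Gfra1 exceeded Ntrk3 in 7 of 9 libraries, Ntrk3 exceeded Gfra2 in 7, Ret exceeded Gdnf in 7, Gdnf exceeded Ngfr in 6 and Ngfr exceeded Ntf3 in 5. Gfra2 exceeded Ret in 8 of 9. Exonic length here is the union of all annotated exons, which is long for Ntrk2 (19.3 kb) and Ntrk3 (30.2 kb). With the longest transcript of each gene in its place, an alternative chosen after seeing these lengths, the mean was 12.9 times background for Ntrk2, 4.56 for Ntrk3, 3.83 for Gfra1 and 1.04 for Bdnf, so that Ntrk3 then stood above Gfra1. Tissue-restricted genes rose as well on that length, with Muc2 at 7.99 and Csn1s1 at 6.43, both above Ntrk3 and Gfra1 and below Ntrk2. The limits given above for silent genes therefore do not apply to these means.

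**Figure D1:**
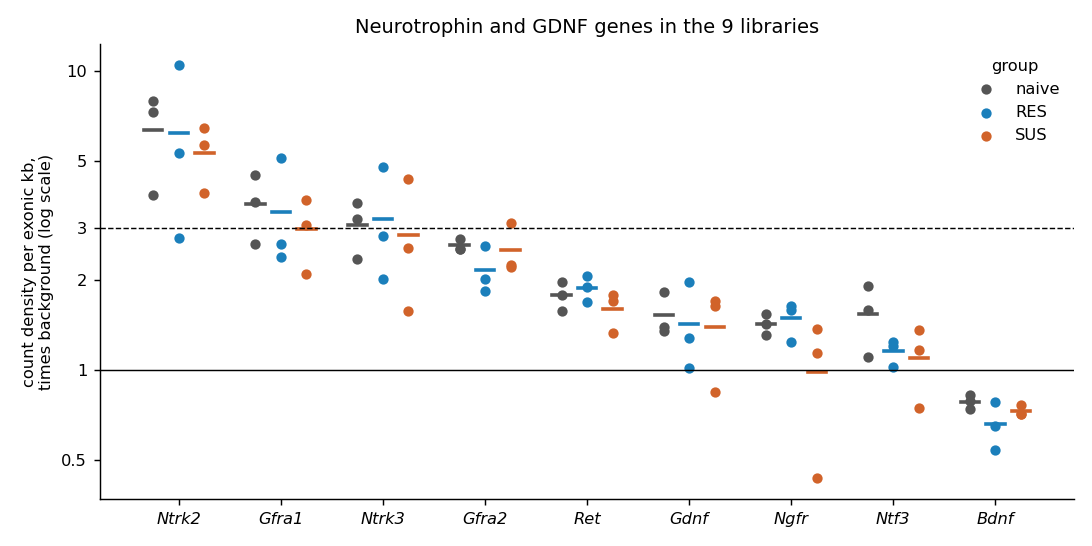
Count density per exonic kb, in multiples of background on a log axis, for the 9 genes ordered by their mean; points are libraries, coloured by group, and short bars are group means. The solid line marks background and the dashed line 3 times background; Ntrk2 lies above the dashed line in 8 of 9 libraries and Bdnf below the solid line in all 9.

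The 3 ligands stood at the low end of the set, along with Ngfr. Bdnf (ENSMUSG00000048482, chromosome 2, 109674700 to 109727007, GRCm38) had 80, 28 and 109 counts in naive replicates 1 to 3, 51, 27 and 86 in RES and 80, 85 and 83 in SUS. This was 0.542 to 0.826 times background, below the density of the olfactory receptor genes in every library. An antisense gene, Gm45346, shares 896 exonic bases with Bdnf and had 4 to 29 counts, and as the strand setting of the counting is not stated, reads from the pair may not be told apart. Ntf3, which encodes NT-3 (ENSMUSG00000049107, chromosome 6, 126101412 to 126166910), had 31, 20 and 58 counts in the naive libraries, 26, 17 and 31 in those of RES and 42, 36 and 24 in those of SUS, or 0.750 to 1.92 times background. Gdnf (ENSMUSG00000022144, chromosome 15, 7810846 to 7837575) had 81, 41 and 109 counts in the naive libraries, 47, 58 and 83 in those of RES and 108, 112 and 58 in those of SUS, or 0.846 to 1.97 times background. No ligand library reached 3 times background.

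Of the neurotrophin receptors, Ntrk2 had the highest level, followed by Ntrk3 and Ngfr. Ntrk2 (ENSMUSG00000055254, chromosome 13, 58806569 to 59133970) had 1215, 861 and 3259 counts in the naive libraries, 1297, 1625 and 939 in those of RES and 1961, 2238 and 1409 in those of SUS. Its density was 3.85, 7.33 and 7.95 times background in the naive libraries, 5.34, 10.5 and 2.76 in those of RES and 5.65, 6.48 and 3.91 in those of SUS. Both extremes, RES replicate 2 and RES replicate 3, were thus in a single group. Ntrk3 (ENSMUSG00000059146, chromosome 7, 78175959 to 78738012) stood at 2.35, 3.21 and 3.63 times background in the naive libraries, 2.82, 4.80 and 2.02 in those of RES and 2.56, 4.37 and 1.58 in those of SUS. It passed 3 times background in 4 libraries and had 590 to 2364 counts. The ratio of Ntrk2 to Ntrk3 per exonic kb was 2.04 ± 0.347 in naive (SD, n = 3), 1.82 ± 0.415 in RES and 2.05 ± 0.514 in SUS, differences smaller than the spread within groups. Ngfr (ENSMUSG00000000120, chromosome 11, 95568818 to 95587735) stood at 1.31, 1.43 and 1.54 times background in the naive libraries, 1.24, 1.59 and 1.65 in those of RES and 1.15, 1.38 and 0.436 in SUS. SUS replicate 3 stood lowest for Ngfr, with 28 counts (exact Poisson 95% interval 18.6 to 40.5, which covers counting error only).

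Of the GDNF receptors, Gfra1 was the highest and Ret the lowest per length. Gfra1 (ENSMUSG00000025089, chromosome 19, 58235604 to 58455909) stood at 2.65, 3.66 and 4.51 times background in the naive libraries, 2.39, 5.11 and 2.64 in those of RES and 3.06, 3.72 and 2.09 in SUS. The antisense gene Gm16277 shares 416 exonic bases with it and had 2 to 38 counts beside the 122 to 524 of Gfra1. Gfra2 (ENSMUSG00000022103, chromosome 14, 70890120 to 70979838) varied less, at 2.75, 2.55 and 2.54 times background in the naive libraries, 2.02, 2.61 and 1.84 in those of RES and 2.25, 3.11 and 2.21 in SUS. Ret (ENSMUSG00000030110, chromosome 6, 118151745 to 118197718) lay between 1.33 and 2.06 times background in all 9 libraries, within or near the range of silent genes. The dopamine neuron markers of the same libraries, Th, Slc6a3, Slc18a2 and Ddc, reached 3 times background on average in 0 of 4 cases, with a median of 1.80 to 2.83 per library. With the longest transcript as length, Ddc averaged 5.90 and Ret 2.13, and the other dopamine neuron markers stayed under 3. The ratio of Gfra1 to Gfra2 per exonic kb was 1.39 ± 0.407 in naive (SD, n = 3), 1.52 ± 0.394 in RES and 1.17 ± 0.208 in SUS, with differences no larger than the widest of these SDs.

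The levels of the Trk receptors were set beside those of marker genes across libraries. Ntrk2 was lowest in RES replicate 3, naive replicate 1 and SUS replicate 3. In these 3 libraries the median of the 8 astrocyte genes was lowest as well, at 3.25, 4.38 and 5.00 times background, as was that of the 12 medium spiny neuron genes, at 2.65, 3.69 and 2.87. By summed CPM the lists ordered the libraries differently: SUS replicate 2 (1355) was below SUS replicate 3 (1451) for the astrocyte genes, and SUS replicate 1 (901) below naive replicate 1 (968) for the medium spiny neuron genes. Ntrk2 was highest in RES replicate 2, where the astrocyte median was highest too, at 16.6, while the medium spiny neuron median was higher in SUS replicate 2 (9.63) than there (8.97). In the 3 libraries where Ntrk2 was lowest, some lists that mark no cell type had their lowest medians too. In the order given above these were 1.58, 2.25 and 2.96 for the MAPK and PI3K core and 1.92, 2.67 and 2.77 for the p75 arm. They were 2.02, 3.26 and 4.05 for the transcriptional targets and 3.17, 3.12 and 2.70 for the other receptors and co-receptors. For receptor adaptors, ligand-processing genes and the other ligands this was not so. Background, which divides every level, was 2.29, 2.18 and 2.26 CPM per kb there, with only RES replicate 1 (2.21) in that range. These are 9 libraries that differ in depth and in background, so this is a description, made after the values were seen. The summed level of the 8 astrocyte genes was 1106 to 3530 CPM in naive, 714 to 3668 in RES and 1355 to 1862 in SUS. That of the 12 medium spiny neuron genes was 968 to 1663 CPM in naive, 564 to 1967 in RES and 524 to 1948 in SUS, with no gene of either list at 0 counts. CPM are counts scaled to library size by the trimmed mean of M values. The part of these cells in the differences given next was not tested.

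**Figure D2:**
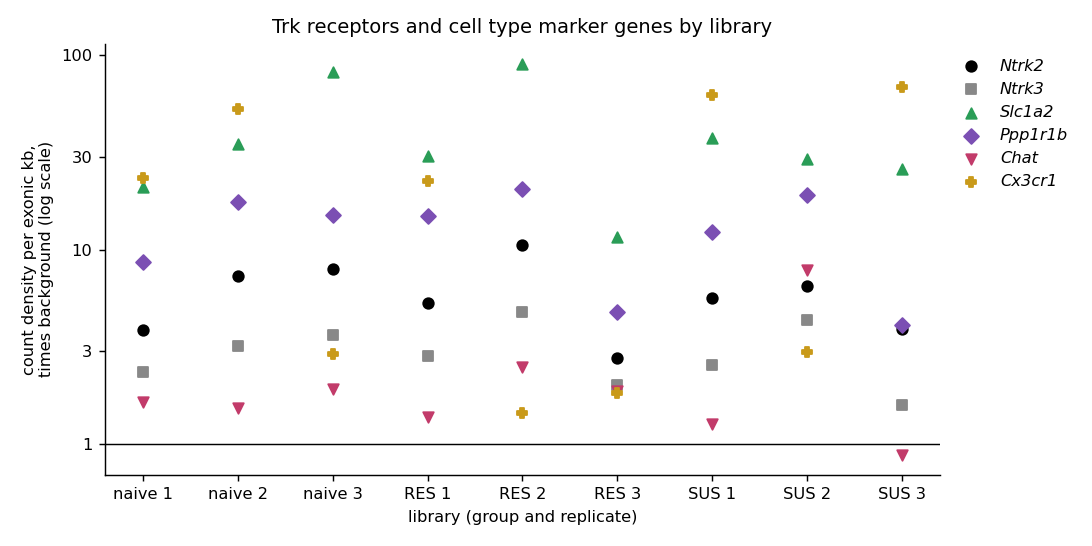
Count density per exonic kb in multiples of background (log axis) for the 9 libraries; symbols are the Trk receptors Ntrk2 and Ntrk3 and 1 marker gene of each of 4 lists, Slc1a2 (astrocytes), Ppp1r1b (medium spiny neurons), Chat (cholinergic neurons) and Cx3cr1 (microglia), and the line is background. Ntrk2 and Slc1a2 are both highest in RES replicate 2 and lowest in RES replicate 3, and Chat lies near background outside SUS replicate 2.

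Genes with the most similar pattern were sought for the 3 members that averaged at least 3 times background, among 5750 other protein-coding genes at that level. Likeness was the root mean square difference of log2 CPM over the 9 libraries after each gene was centred on its mean. The genes closest to Ntrk2 were Fmn2 (0.076), Ubr4 (0.091) and Mapk4 (0.091), where the median over all genes compared was 0.40. Those closest to Ntrk3 were Igsf9b (0.072), the kainate receptor Grik3 (0.085) and Timp4 (0.088), against a median of 0.45. Those closest to Gfra1 were Mroh7 (0.067), Tctn3 (0.10) and Zdhhc1 (0.10), against a median of 0.43. A gene that did not vary at all would score 0.45 for Ntrk2, 0.39 for Ntrk3 and 0.29 for Gfra1. For Ntrk3 and Gfra1 that is already under the median.

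The groups were compared to ask whether cells from mice that had taken cocaine, or from the RES and SUS groups, differed from drug-naive cells. None of the 9 genes passed the edgeR quasi-likelihood test in any comparison. The test called 0 of 39210 genes (0% in each of the 4 comparisons) at an adjusted p under 0.05, so a count of 0 among the 9 equals the background. At an unadjusted p under 0.05 there were also 0 of the 9 in each comparison, by edgeR as described and by DESeq2 and limma-voom; Ngfr passed that level under some other settings, given with SUS against RES and SUS against naive. Over all genes, edgeR gave 361 at that level in the RES comparison with naive, 1225 in that of SUS with naive, 2227 between SUS and RES and 541 with all cocaine libraries. DESeq2 gave 264, 931, 1885 and 484, and limma-voom 1671, 3225, 3367 and 1697, and neither called any gene.

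**Figure D3:**
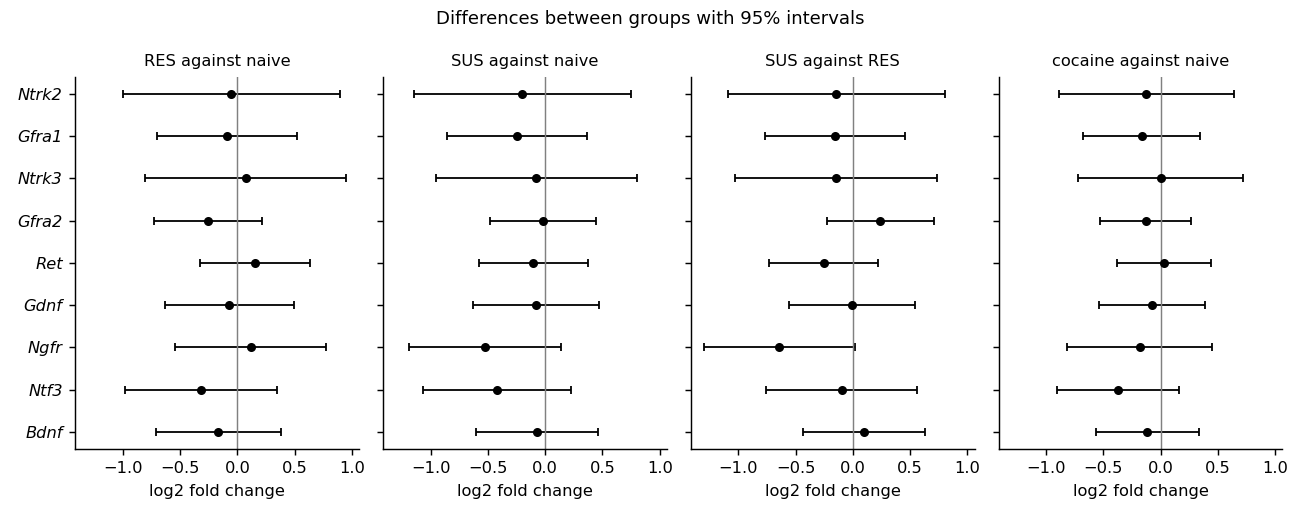
Log2 fold changes of the 9 genes with their 95% intervals from the edgeR fit, in the 4 comparisons; the vertical line is no difference. Every interval includes 0, and the one that reaches least beyond it is that of Ngfr in SUS against RES, from -1.30 to 0.02.

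In RES against naive, 6 of the 9 genes had lower and 3 higher values (median log2 fold change -0.07), where 52.6% of all genes tested were lower (median -0.02). Gfra2 was the only one whose libraries did not overlap between the groups, which occurred for 6.13% of all genes tested. It had 21.2, 16.6 and 17.7 CPM in naive and 15.8, 15.9 and 15.0 in RES, so the highest RES library was just under the lowest naive one. Its log2 fold change was -0.26 (95% interval -0.73 to 0.21, adjusted p = 1, edgeR). Ntf3 had the largest difference, at 5.18 ± 0.969 CPM in naive (SD, n = 3) and 4.08 ± 0.455 in RES (log2 fold change -0.32, interval -0.98 to 0.34). Ret was at 23.9 ± 0.577 CPM in naive and 26.5 ± 5.05 in RES (0.15, interval -0.33 to 0.63), and without RES replicate 3 its value was -0.01. Bdnf was at 9.74 ± 1.14 CPM in naive and 8.64 ± 2.71 in RES (-0.17, interval -0.71 to 0.38). For Ntrk2 the means were 241 ± 71.7 and 233 ± 114 CPM (-0.05, interval -0.999 to 0.895), and both ends of the RES range lay outside the naive range. That value was 0.26 without RES replicate 3 and -0.45 without RES replicate 2. The remaining genes had log2 fold changes of 0.07 (Ntrk3), 0.12 (Ngfr), -0.07 (Gdnf) and -0.09 (Gfra1). The count of lower members was 4 of 9 without naive replicate 2, naive replicate 3 or RES replicate 1.

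In SUS against naive, all 9 genes had lower values in SUS (median log2 fold change -0.10), where 47.8% of all genes tested were lower (median 0.02). None passed the test, and 0 of the 9 had libraries that did not overlap, against 8.00% of all genes tested. The largest differences were those of Ngfr and Ntf3. Ngfr was at 9.87, 9.07 and 10.5 CPM in naive and 7.69, 9.42 and 3.39 in SUS, a log2 fold change of -0.52 (95% interval -1.18 to 0.14, adjusted p = 0.9998, edgeR). Without SUS replicate 3 it was -0.21, and without SUS replicate 2 it was -0.83 with an unadjusted p of 0.020. Ntf3 was at 4.13, 6.05 and 5.37 CPM in naive and 4.55, 3.99 and 2.90 in SUS (-0.42, interval -1.06 to 0.23). Gfra1 was at 39.0 ± 8.64 CPM in naive (SD, n = 3) and 33.0 ± 7.30 in SUS (-0.24, interval -0.85 to 0.37), and Gfra2 at 18.5 ± 2.40 and 18.3 ± 3.23 (-0.02, interval -0.48 to 0.44). Bdnf was at 10.7, 8.46 and 10.1 CPM in naive and 8.66, 9.42 and 10.0 in SUS (-0.07, interval -0.60 to 0.46). The other 4 genes lay between Ntrk2 at -0.20 (interval -1.14 to 0.75) and Ntrk3 at -0.08 (interval -0.96 to 0.80), with Gdnf at -0.08 and Ret at -0.10. SUS replicate 3 had the lowest CPM of the 9 libraries for 6 of the 9 genes, namely Ntf3, Ntrk3, Ngfr, Gdnf, Gfra1 and Ret. Without it 6 of the 9 were lower, with a median of -0.07. In the same library the summed level of the 12 medium spiny neuron genes was lowest, at 524 CPM beside 564 in RES replicate 3. Their median over background was lower in RES replicate 3 (2.65) than in SUS replicate 3 (2.87). The median of the 9 microglial genes was highest in SUS replicate 3, and the part of either list in the low values was not tested.

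In SUS against RES, 7 of the 9 genes were lower and 2 higher in SUS (median log2 fold change -0.15), where 48.8% of all genes tested were lower. Ngfr had the smallest p of the set. Its values were 9.46, 9.45 and 13.0 CPM in RES and 7.69, 9.42 and 3.39 in SUS, and the groups did not overlap, which occurred for 7.63% of all genes tested. The gap between the nearest libraries was small, as RES replicate 2 and SUS replicate 2 were nearly equal. The log2 fold change was -0.64 (95% interval -1.30 to 0.02), with an unadjusted p of 0.056 and an adjusted p of 0.870 by edgeR. It was -0.33 without SUS replicate 3 and -0.94 without SUS replicate 2, where the unadjusted p was 0.0093 and the adjusted p 0.219, the lowest over all sets with 1 library left out. With no filter on low counts it was -0.65 (interval -1.30 to -0.0072, unadjusted p = 0.048, adjusted p = 0.911, edgeR). As Ngfr was near background, the comparison rests on 28 to 100 counts per library. Ret was at 25.2, 22.1 and 32.0 CPM in RES and 23.5, 22.8 and 20.3 in SUS (-0.26, interval -0.73 to 0.22), and Gfra2 was higher in SUS by 0.24 (interval -0.23 to 0.70). Ntrk2 and Ntrk3 had log2 fold changes of -0.15 each, with intervals from -1.09 to 0.80 and -1.03 to 0.73. Bdnf was at 0.10, Ntf3 at -0.10, Gfra1 at -0.15 and Gdnf at -0.01. The numbers of lower members were 4 of 9 without RES replicate 2 and 4 of 9 without SUS replicate 3.

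With the 6 cocaine libraries set as 1 group against the 3 naive libraries, 8 of the 9 genes had lower values (median log2 fold change -0.12), where 48.6% of all genes tested were lower. This comparison shares its naive libraries with those of RES and of SUS against naive. The difference of Ntf3 was -0.37 (95% interval -0.91 to 0.16, adjusted p = 1, edgeR), that of Gfra1 -0.17 (interval -0.68 to 0.35) and that of Bdnf -0.12 (interval -0.56 to 0.33). Ret, the only one higher, was at 0.03 (interval -0.38 to 0.44). Ngfr was at -0.18, Gfra2 at -0.13, Ntrk2 at -0.12, Gdnf at -0.08 and Ntrk3 at -0.0006. No gene of the 9 had cocaine libraries that lay wholly above or below the naive libraries, against 1.17% of all genes tested. The number of lower members was 5 without naive replicate 3 and 6 without SUS replicate 3.

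A further 67 genes of the same pathways were listed by role, and 0 of the 67 passed the test in any of the 4 comparisons, in either direction. At an unadjusted p under 0.05 there were 10 of the 67 in SUS against RES by edgeR, against 2227 of all 39210 genes tested, and 0 in each of the other comparisons. The ligands of this list, among them Ntf5, Nrtn, Artn and Pspn, were near background as well, with 0 of 5 at 3 times background. Co-receptors and intracellular parts were better expressed. The sorting receptor Sort1, a partner of p75, averaged 6.41 times background, the GDNF-binding adhesion molecule Ncam1 averaged 11.7, and the neuronal Trk adaptor Shc3 averaged 5.80. At least 3 times background was reached by 11 of 17 adaptor genes, 7 of 13 genes of the MAPK and PI3K core, 4 of 8 genes of the p75 arm, 1 of 6 ligand-processing genes and 11 of 12 transcriptional targets.

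**Figure D4:**
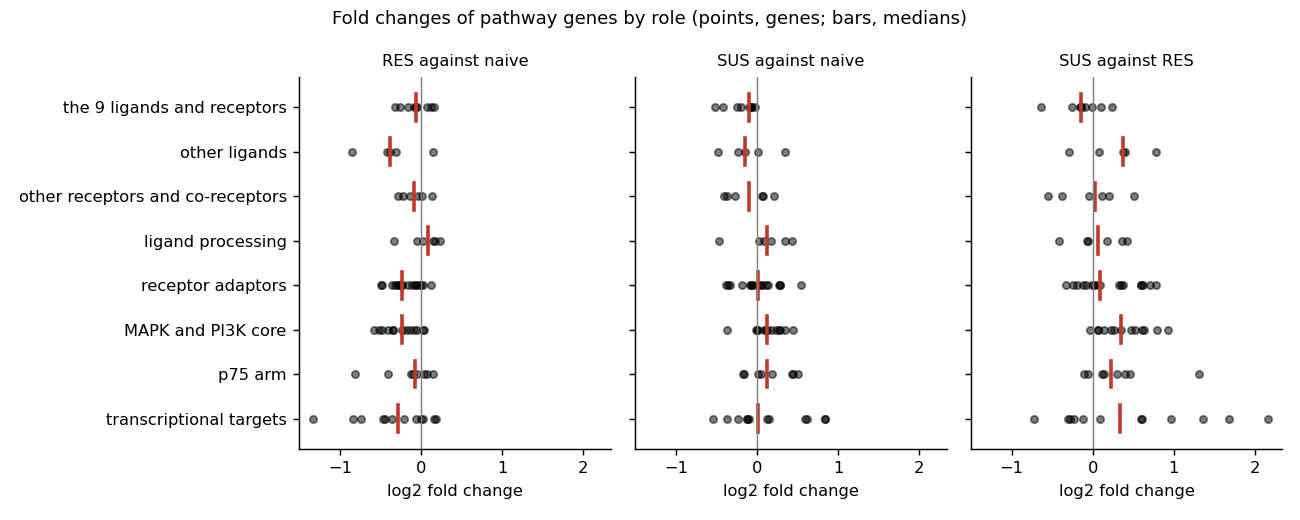
Log2 fold changes of the 9 ligands and receptors and of 67 further pathway genes, grouped by role, in 3 comparisons; points are genes and red bars are medians. The 9 ligands and receptors lie between -0.64 and 0.24 in these panels, and the points that reach furthest from zero are transcriptional targets in SUS against RES; no gene shown passed the test.

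In RES against naive, 49 of these 67 genes were lower (median log2 fold change -0.17), and in SUS against naive 26 were (median 0.06), where 52.6% and 47.8% of all genes tested were lower. The smallest p-value of the first comparison belonged to the kinase Mapk3 (ERK1; -0.58, SE 0.337). Those of the second included the p75 adaptor Traf6 (0.45, SE 0.230) and the protease gene Mmp9 (-0.46, SE 0.240). In SUS against RES, 12 of 13 genes of the MAPK and PI3K core were higher (median 0.34), where 20062 of 39210 genes tested were. The summed level of this core was 647, 670 and 304 CPM in RES replicates 1 to 3. In SUS replicates 1 to 3 it was 757, 620 and 740 CPM. Outside the low RES replicate 3 the groups thus overlapped, as SUS replicate 2 was below RES replicates 1 and 2. Mapk3 was at 34.1 ± 14.0 CPM in SUS (SD, n = 3) and 18.0 ± 5.39 in RES (0.93, SE 0.334). The kinase Akt1 was at 58.4 ± 12.5 and 33.6 ± 15.1 CPM (0.80, SE 0.343). Of the transcriptional targets, 7 of 12 were higher, among them Egr2 (1.36, SE 0.457) and the ERK phosphatase Dusp6 (1.68, SE 0.585). The adaptors Gab2 (0.78, SE 0.344) and Frs2 (0.59, SE 0.253) had higher values too, while Sorcs2, a co-receptor of p75, had a lower one (-0.55, SE 0.400). Each of these genes had an adjusted p of 0.870 or more by edgeR. The receptors at the head of the pathway were not among the genes with higher values: Ntrk2 had a log2 fold change of -0.15, Ret -0.26 and Gfra1 -0.15 in the same comparison. The summed level of the 12 targets was 198 to 544 CPM in RES and 425 to 1240 in SUS. Of this, Egr1 alone averaged 95.4 ± 103 CPM in RES and 429 ± 346 in SUS. SUS replicate 2 (425) lay below RES replicate 1 (544) and RES replicate 2 (505). The summed level of the 9 microglial genes was 74.7 to 1287 CPM in RES and 177 to 4407 in SUS, and their part in these values was not tested.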

How the data were processed

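Each of the 9 libraries was 1 column of a table of raw read counts per Ensembl gene. Per the submitters' processing notes, the authors used FastQC, STAR 2.5.2b, HTSeq, DESeq, DESeq2 and the GRCm38 build, with no role or order given, and the annotation release and strand setting are not given in the sources used here. The deposited counts were tested as they stand with edgeR 4.0.16 in R 4.3.3: low counts were removed with filterByExpr, scaling was by TMM (trimmed mean of M values), 1 quasi-likelihood model held all 9 libraries, and p-values were adjusted by Benjamini-Hochberg over 39210 genes with a threshold of 0.05. The standard error is the fold change over the root of the F statistic. The test was checked on simulated counts, with changes far larger than any difference of the 9 genes. That check therefore does not show whether differences of their size would be found. Alternatives were RLE scaling, no filter, DESeq2 1.42.0, limma 3.58.1 (voom with sample weights), a replicate block and each library left out. Exon lengths came from GENCODE M21, which held 52489 of the 52636 gene IDs. Total counts of 4471675 to 11155730 leave members at background with under 120 counts per library, so their differences are imprecise. The 9 genes and all lists were chosen with earlier results of these data known. All 9 genes are named, with the 2 genes of smallest p of each pathway list and comparison that are used as examples, and the 3 genes most alike to each member at 3 times background or more. The search for similar patterns added a pseudocount of 0.5 to the CPM. Some genes that this rule would name are not reported here.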

Additional observations from a re-analysis of the deposited data

How the results depend on the processing

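No gene and no member was called under any alternative, by edgeR, DESeq2 or limma-voom with Benjamini-Hochberg adjustment, and the lowest adjusted p of a member over all alternatives was 0.9998 in RES against naive, 0.549 in SUS against naive, 0.219 in SUS against RES and 0.9995 in cocaine against naive. None of the fold changes below was called, and the cause of the turned signs was not tested. With limma-voom the log2 fold change turned for Ngfr in RES against naive (-0.0095), for Gdnf in SUS against naive (0.062) and for Gdnf (0.27) and Gfra1 (0.0027) in SUS against RES. For Ntrk3 in cocaine against naive it was 0.0048 with RLE scaling, 0.0017 without a filter, 0.0044 with DESeq2 and 0.076 with limma-voom. With 1 library left out, signs turned in RES against naive for Bdnf (-0.40 to 0.055), Gdnf (-0.18 to 0.093), Gfra1 (-0.31 to 0.10), Ngfr (-0.059 to 0.22), Ntrk2 (-0.45 to 0.26), Ntrk3 (-0.14 to 0.26) and Ret (-0.0075 to 0.28). They turned in SUS against naive for Gdnf (-0.23 to 0.13), Gfra2 (-0.17 to 0.090) and Ntrk3 (-0.51 to 0.17). In SUS against RES they turned for Bdnf (-0.13 to 0.33), Gdnf (-0.18 to 0.20), Gfra1 (-0.33 to 0.065), Ntf3 (-0.26 to 0.061), Ntrk2 (-0.46 to 0.25) and Ntrk3 (-0.58 to 0.10). In cocaine against naive they turned for Gdnf (-0.14 to 0.021), Gfra1 (-0.30 to 0.026), Ntrk2 (-0.34 to 0.070), Ntrk3 (-0.13 to 0.13) and Ret (-0.065 to 0.076). Members that kept their sign under every alternative numbered 2 of 9 in RES against naive, 6 in SUS against naive, 3 in SUS against RES and 4 in cocaine against naive. Against the median of tissue-restricted genes as background, levels were 3.91 for Ntrk2, 2.17 for Gfra1, 2.00 for Ntrk3 and 0.487 for Bdnf, so that Ntrk2 alone stayed above 3.

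Over 9 same-numbered pairs of libraries the correlation of deviations from the group means was -0.217 to 0.212, above 0.1 in 3 pairs. Pairs with different numbers ranged from -0.385 to 0.377. With groups of 3 libraries these correlations cannot decide whether equal numbers share a pool or a day, which is not stated. The edgeR fit with the replicate number as a block called 0 genes in each comparison, and Ngfr in SUS against RES was at -0.68 (adjusted p = 0.912).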
